A study of Mus musculus with 12 samples.

Results

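The assay for transposase-accessible chromatin with sequencing (ATAC-seq) was compared between 3 WT and 3 cKO libraries of mouse Th2 cells, which are 6 of the 12 samples of the study. The other 6 are RNA-seq libraries, 3 WT and 3 cKO, and are used here only beside the chromatin results. Each ATAC-seq library has its own deposited peak list. Peaks that shared at least 1 bp were merged over the 6 lists, on autosomes only, into 112191 regions. Of these, 32845 (29.3%) held a peak in all 6 lists and are called shared regions below. Tag counts were compared in the shared regions, and the presence or absence of a peak was compared in all merged regions.

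The genotype is given only as WT or cKO. The labels do not spell out cKO and name no deleted gene, allele, Cre driver or promoter. The study's title names NRF2, Th2 polyfunctionality and allergic asthma. Age, strain and sex are not given, and no treatment or time is given that separates the groups. The ATAC-seq libraries were each made from 50000 cells. Nothing in the labels says whether the 3 libraries of a group came from separate mice or cultures, so the p-values below measure the spread between these libraries, which may be technical. With bulk libraries, fewer cells of one kind and less signal per cell cannot be told apart.

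ATAC-seq uses the Tn5 transposase, which inserts sequencing adapters where DNA is not covered by nucleosomes, so that promoters and enhancers in use collect tags. Th2 cells are CD4 T helper cells that are driven by GATA3 and secrete IL-4, IL-5 and IL-13, the cytokines of allergic airway inflammation. NRF2, encoded by Nfe2l2, is a basic leucine zipper factor that the KEAP1 and CUL3 ubiquitin ligase keeps low. Under oxidative or electrophilic stress it escapes that ligase, pairs with small MAF proteins and binds antioxidant response elements at genes such as Nqo1, a quinone reductase. BACH1 and BACH2 bind related sites and are repressors.

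Promoters of 5 genes are shown because their start lies in a region that the results below turn on. Prcd and Nqo1 had regions lower in the cKO libraries, Taok3 and Fads3 had regions higher in them, and Nfe2l2 encodes NRF2. Each line gives the 250 bases before the RefSeq transcription start (GRCm38.p6, the assembly named mm10 by the submitters), 5′ to 3′ on the gene's strand. Capitals mark matches, on either strand, to 3 of the 7 motifs searched. These are the Sp/KLF box GGGCGG, the ETS motif CCGGAAG and the core of the antioxidant response element TGANNNNGC.
Prcd, chr11:116656858-116657107, plus strand: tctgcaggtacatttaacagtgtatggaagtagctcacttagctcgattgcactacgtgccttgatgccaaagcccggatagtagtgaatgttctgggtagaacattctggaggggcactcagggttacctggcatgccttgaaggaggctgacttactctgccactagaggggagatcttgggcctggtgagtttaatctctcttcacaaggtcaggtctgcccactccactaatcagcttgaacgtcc
Nqo1, chr8:107403206-107403455, minus strand: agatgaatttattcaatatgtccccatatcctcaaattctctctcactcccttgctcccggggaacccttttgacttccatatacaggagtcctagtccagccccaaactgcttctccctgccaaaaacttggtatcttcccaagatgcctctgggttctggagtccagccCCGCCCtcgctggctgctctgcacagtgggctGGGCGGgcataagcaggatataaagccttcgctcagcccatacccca
Taok3, chr5:117119879-117120128, plus strand: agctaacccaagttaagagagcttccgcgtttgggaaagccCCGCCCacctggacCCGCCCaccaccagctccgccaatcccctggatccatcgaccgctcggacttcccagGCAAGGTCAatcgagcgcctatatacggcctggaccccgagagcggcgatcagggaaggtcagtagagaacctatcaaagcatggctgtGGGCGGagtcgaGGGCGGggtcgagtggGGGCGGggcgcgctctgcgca
Fads3, chr19:10041298-10041547, plus strand: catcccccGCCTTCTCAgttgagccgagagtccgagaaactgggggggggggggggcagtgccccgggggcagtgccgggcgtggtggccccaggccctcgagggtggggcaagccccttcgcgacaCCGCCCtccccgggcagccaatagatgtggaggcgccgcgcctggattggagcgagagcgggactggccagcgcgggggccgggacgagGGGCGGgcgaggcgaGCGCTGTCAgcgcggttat
Nfe2l2, chr2:75704664-75704913, minus strand: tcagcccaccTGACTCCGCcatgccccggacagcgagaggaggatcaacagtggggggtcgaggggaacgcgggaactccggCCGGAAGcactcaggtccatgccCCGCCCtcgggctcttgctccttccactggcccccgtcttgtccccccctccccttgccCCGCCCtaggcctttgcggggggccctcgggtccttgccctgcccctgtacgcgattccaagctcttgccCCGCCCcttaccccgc
The Prcd window held no match to any of the 7 motifs. The Nqo1 window held 2 Sp/KLF boxes, 79 and 47 bases before the start, and no match to the antioxidant response core. The Taok3 window held 5 Sp/KLF boxes and 1 antioxidant response core, the Fads3 window 2 of each, and the Nfe2l2 window 3 Sp/KLF boxes, 1 ETS motif and 1 antioxidant response core. A match is a string of letters and does not show that a factor binds there. No entry for Cd4 was found in the promoter table.

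The libraries held 13149952 to 18327127 tags, and their lists held 53032 to 73443 autosomal peaks. WT replicate 2 stood apart from the rest: it was the deepest library at 18327127 tags, and 19.9% of its tags lay in autosomal peaks against 26.8% to 30.7% in the other 5. The cKO lists held 57014 ± 5276 peaks (SD, n = 3) and the WT lists 65197 ± 7473 (SD, n = 3), a difference of -8183 (2-sided exact permutation p = 0.2, 0.4 after Benjamini-Hochberg adjustment over 4 library summaries). The DNA covered was 55.3 ± 5.99 Mb in the cKO lists and 65.9 ± 6.06 Mb in the WT lists (exact permutation p = 0.2). With 3 libraries against 3, the smallest p this test can give is 0.1. Neither difference passed the test, and the share of tags in peaks differed by 1.08 percentage points with cKO higher, or by -2.13 points without WT replicate 2.

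**Figure D1:**
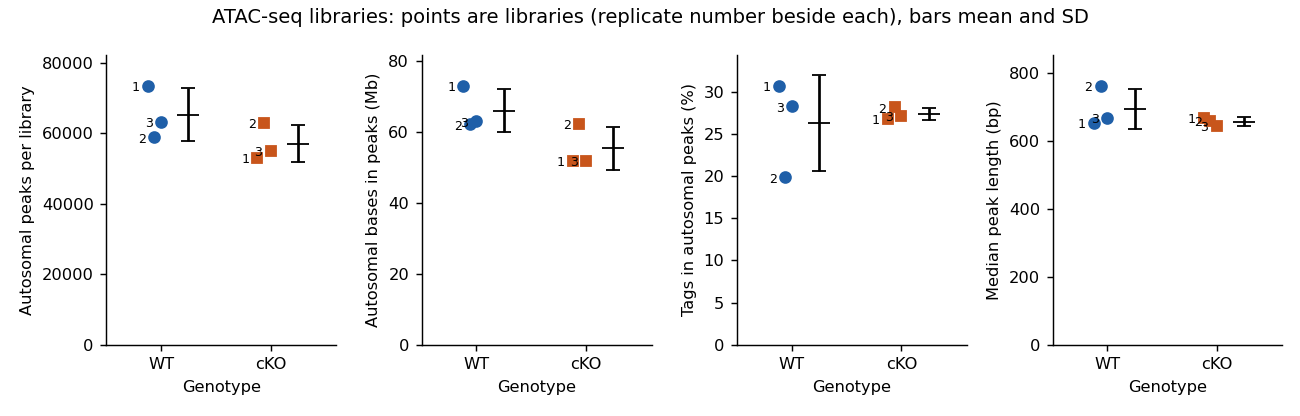
Autosomal peaks, autosomal Mb in peaks, percent of tags in autosomal peaks and median peak length (y axes, all from 0) for each ATAC-seq library, by genotype; points are libraries with their replicate number, and bars are mean and SD of 3. WT replicate 2 lies below the other 5 libraries in the share of tags in peaks (19.9%) and above them in median peak length (764 bp).

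More regions were found in every WT list and no cKO list than the reverse. Of the 112191 merged regions, 2772 (2.47%) held a peak in all 3 WT lists and in no cKO list, and 309 (0.275%) held one in all 3 cKO lists and in no WT list. Peaks in a single list were far more numerous, with 44176 regions. The regions found in WT lists alone were short and low, with a median length of 698 bp and a median height of 10.5 normalized tags (tags scaled by the authors to 10000000 per library), close to the lowest peaks called in each library (5.08 to 6.01). When each list was cut to an equal number of its top-scoring peaks, there were 1842 WT-only and 454 cKO-only regions. With peaks under 10 normalized tags removed, there were 2649 and 108.

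**Figure D2:**
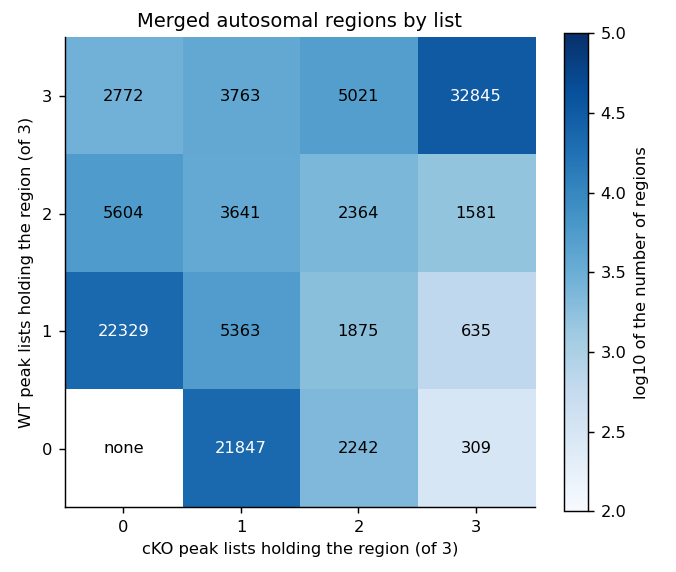
Number of merged autosomal regions by how many WT lists (y axis, 0 to 3) and cKO lists (x axis, 0 to 3) hold a peak there; shading is the log10 of the number. The top left cell (2772 regions in every WT list and no cKO list) is larger than the bottom right cell (309).

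The tallest WT-only region lay inside Cntnap5b, a contactin-associated protein gene of neurons, at chr1:100179988-100180497. Its peak held 176, 97.7 and 149 normalized tags in the WT libraries, and no peak was called there in any cKO library. It stood well above the other WT-only regions. A second WT-only region between genes on the same chromosome, chr1:102628000-102628522, held 73.2, 45.8 and 60.4 normalized tags. A region 1874 bp from Rps26, a ribosomal protein gene, held 52.5, 22.6 and 43.2 normalized tags. The tallest cKO-only regions were lower and more uneven. A region 1400 bp from Arhgap33, a GTPase-activating protein gene, held 37.9, 14.7 and 14.4 normalized tags in the cKO libraries, and one at an end of Smim41 held 17.2, 6.49 and 41.1. A region at an end of Csnk1g2, a casein kinase gene, was more even at 23.1, 18.3 and 22.4.

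Amounts were compared with 3 measures of each shared region. Summed tags are all normalized tags of a library's peaks in the region, the highest peak is the tallest of them, and tags per kb divide the sum by the DNA covered by those peaks. A shared region held 1.05 to 1.08 peaks per library on average. In most regions summed tags and the highest peak are therefore the same number, and their passing together adds little. The deposited peaks were stitched together from neighbours, so a region can lose tags by losing width, by losing density, or by both. Tags per kb count only DNA in called peaks, so DNA that falls under the caller's threshold leaves the sum and the length together. Tests used limma with Benjamini-Hochberg adjustment over all 32845 regions on log2(value + 1), and a region was called at an adjusted p of 0.05 or less. After quantile normalization, summed tags were higher in the cKO libraries in 2207 regions (6.72%) and lower in 2410 (7.34%). The highest peak was higher in 1202 (3.66%) and lower in 1412 (4.3%), and tags per kb were higher in 329 (1%) and lower in 529 (1.61%).

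The balance of higher and lower calls depended on how libraries were scaled. Higher calls made up 47.8% of summed-tag calls after quantile normalization, 81.5% after scaling to the library median, 16.1% with normalized tags as deposited and 48.2% after cyclic loess. The median log2 change over all shared regions was 0.02, 0.15, -0.15 and 0.02 under these 4 scalings. For this reason the results below rest on the regions called in the same direction under all 4. By summed tags these were 617 regions higher (1.88%) and 1133 lower (3.45%). All 3 measures passed under quantile normalization in 103 regions higher (0.314%) and 157 lower (0.478%), and under all 4 scalings in 13 higher (0.0396%) and 76 lower (0.231%).

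The 617 higher and 1133 lower regions differed in height, in size of change and in covered DNA. The higher regions were tall, with a median height of 158 normalized tags against 33.3 over all shared regions, and their summed-tag change was small, with a median log2 of 0.43. The lower regions had an ordinary height of 33.2 and a larger change, with a median log2 of -0.86. Of the 1133 lower regions, 1122 covered less DNA in the cKO lists, with a median log2 of covered kb of -0.66, and 168 were also lower per kb. Of the 617 higher regions, 345 covered more DNA and 270 covered less. Summed tags did not overlap between groups in 579 of the 617 and 1114 of the 1133, which were chosen by tests on these same values. Losing 1 library changed these sets: of the 617, between 564 and 585 were still called without any 1 WT library and between 301 and 390 without any 1 cKO library. Of the 1133, between 727 and 810 were still called without 1 WT library and between 542 and 657 without 1 cKO library.

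**Figure D3:**
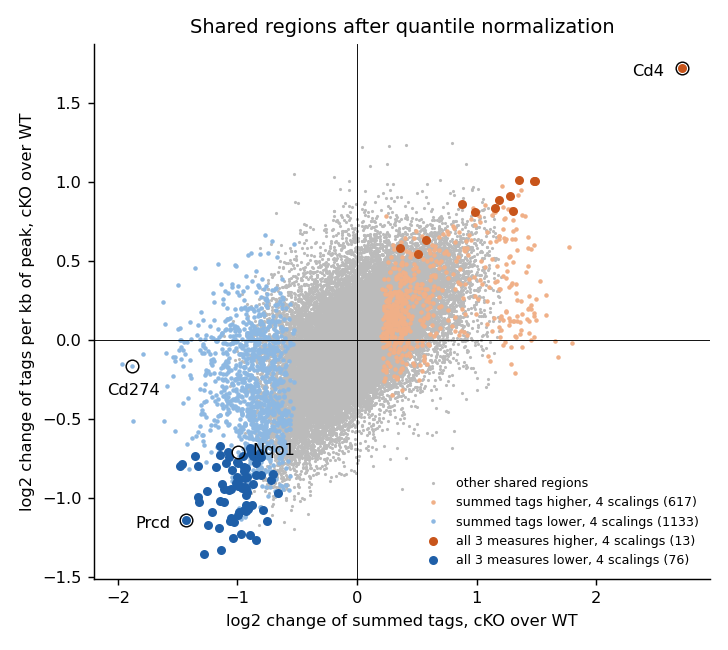
Change of summed tags (x axis, log2 cKO over WT) against change of tags per kb of peak (y axis, log2) for the 32845 shared regions after quantile normalization; small coloured points are called by summed tags under 4 scalings, large ones by all 3 measures under 4 scalings, and 4 regions are ringed and named. The Cd4 region lies alone at the top right, Prcd lies low on both axes, and Cd274 lies far to the left, near 0 per kb.

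By summed tags, higher regions lay mostly at gene ends and lower regions mostly away from them. A gene end here means within 1 kb of either end of a RefSeq gene, since the gene table gives no strand. Of all shared regions, 35.4% lay at a gene end, 36.0% inside a gene and 28.6% between genes. Of the 617 higher regions, 75.0% lay at a gene end, and 65.0% held a transcription start. Of the 1133 lower regions, 7.41% lay at a gene end, 54.1% inside a gene and 38.5% between genes. The contrast in location was present under each scaling: 60.9% to 75.2% of summed-tag calls that were higher lay at gene ends, against 7.09% to 23.8% of those that were lower. Without WT replicate 2, under quantile normalization, these shares were 64.2% and 24.1%. The regions higher by all 3 measures did not show this: 30.8% of the 13 under 4 scalings and 40.8% of the 103 after quantile normalization lay at gene ends, and 25% of the 36 called without WT replicate 2. The share of regions at gene ends also went with length, from 7.48% among the shortest of 5 equal bins of shared regions to 58.1% among the longest, and the part of height and length in these shares was not tested.

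**Figure D4:**
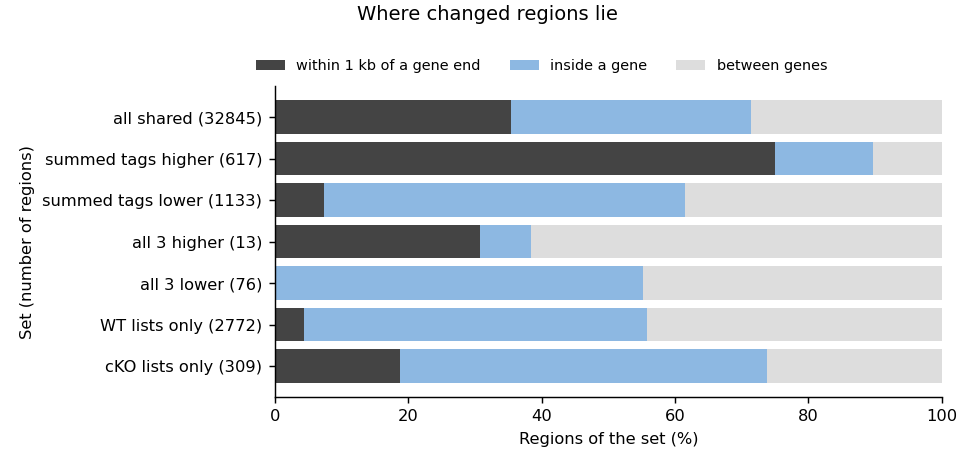
Percent of regions (x axis) within 1 kb of a gene end, inside a gene or between genes, for all shared regions and for each set of changed regions (y axis, number in brackets); summed tags and all 3 refer to calls under 4 scalings. The bar for summed tags higher is 75.0% gene ends, and the bar for summed tags lower is 7.41%.

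Region length went with the direction of the calls, but which way depended on the scaling. Median lengths of higher and lower summed-tag calls were 1630 and 2533.5 bp after quantile normalization, and 1607 and 2611 bp after cyclic loess. They were 2095 and 1468 bp after scaling to the library median, and 1977 and 1373 bp with no further scaling. The regions called under 4 scalings had medians of 1963 bp (higher) and 1794 bp (lower). Shared regions were ranked by length into 5 equal bins. In the bin of the longest, from 2433 to 59113 bp, 19.3% were lower and 5.54% higher by summed tags after quantile normalization. In the middle bin, from 1296 to 1742 bp, 4.81% were lower and 9.50% higher. In the bin of the shortest, from 519 to 959 bp, 1.72% were lower and 2.65% higher. Covered DNA was shorter in the cKO lists in 73.8% of all shared regions and in 94.5% of those called lower.

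The largest summed-tag change of any shared region after quantile normalization was at Cd4, the T cell co-receptor that marks helper cells, at chr6:124879464-124889302. Its summed tags were 113, 77.2 and 106 in the WT libraries and 836, 813 and 788 in the cKO libraries. The groups were far apart, at 98.8 ± 19.0 and 812 ± 24.2 (SD, n = 3 each), an 8.22-fold higher level in cKO. This is a change in tags. The number of DNA copies there was not measured, and the cause of the change was not tested. The peaks there covered 4.25, 4.14 and 3.81 kb in the WT libraries and 9.66, 9.46 and 9.41 kb in the cKO libraries, so that tags per kb were 3.5-fold higher. The log2 change was 2.72 ± 0.07 (SE) for summed tags (limma, adjusted p = 9.33e-14) and 1.72 for tags per kb (adjusted p = 0.000368). It remained called per kb without any 1 library, with adjusted p from 0.00159 to 0.0165. The other shared region at an end of Cd4, which starts at chr6:124862817, had 41.1, 34.4 and 57.1 normalized tags in WT and 42.4, 43.2 and 27.0 in cKO, and these overlap. Cd4 RNA was 1955 ± 276 normalized counts in WT and 3132 ± 996 in cKO (log2 0.63, limma adjusted p = 0.259).

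The promoters shown above for Taok3 and Fads3 lay in 2 of the other regions that were higher by all 3 measures under 4 scalings. In all 13 regions of that set, and all 76 of the lower set, summed tags did not overlap between groups. The sets were chosen by tests on the same values, so separate groups add no support to a named region. At Taok3, a kinase of the TAO family (chr5:117119412-117121404), summed tags were 194, 117 and 199.7 in WT and 293, 313 and 297 in cKO. Every cKO library was above every WT library, with a log2 change of 0.51 (adjusted p = 0.00101). At Fads3, a gene of the fatty acid desaturase family (chr19:10040955-10042779), the values were 68.7, 35.5 and 55.9 in WT and 92.4, 86.6 and 98.5 in cKO. The groups did not overlap and the log2 change was 0.88 (adjusted p = 0.00178). Their RNA did not pass the test, at a log2 of 0.52 for Taok3 (adjusted p = 0.278) and 0.59 for Fads3 (adjusted p = 0.831), whose RNA was near the detection limit at 7.14 and 14.7 normalized counts.

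Most of the other named higher regions lay between genes, and the nearest gene is given only as a landmark. The region 1787 bp from Batf3, an AP-1 family factor of dendritic and T cells, held 33.2, 32.2 and 38.3 normalized tags in WT and 53.1, 60.9 and 69.2 in cKO (log2 0.99, adjusted p = 0.00295). The region 6726 bp from Tle3, a Groucho family corepressor, held 11.3, 14.5 and 11.6 in WT and 23.8, 24.0 and 25.9 in cKO (log2 1.28, adjusted p = 0.00553). The region 33825 bp from Rad23b, a DNA repair and proteasome shuttle factor, held 10.6, 9.82 and 10.1 in WT and 26.2, 22.3 and 23.6 in cKO (log2 1.47, adjusted p = 0.0016). In all 3 regions the WT libraries lay close together and below every cKO library. A region 201328 bp from Bcl2l11, which encodes the pro-apoptotic protein BIM, was less clear-cut. It held 47.9, 16.4 and 29.7 in WT against 59.3, 57.0 and 49.4 in cKO, where WT replicate 1 came near cKO replicate 3. The regions nearest to Gm52008, Tbl1xr1, Cfap43, Csmd1 and Dnajb12 also had no overlap between groups, with log2 changes of 0.57 to 1.49.

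The calls by all 3 measures rested on having every cKO library. Of the 13 higher regions, 9 or 10 were still called by all 3 without any 1 WT library, and 1, the Cd4 region, without any 1 cKO library. Of the 76 lower regions, 18 to 26 were still called without any 1 WT library, and 0 to 4 without any 1 cKO library. By summed tags alone, all 13 higher regions and 28 of the 76 lower regions were called in every such fit.

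**Figure D5:**
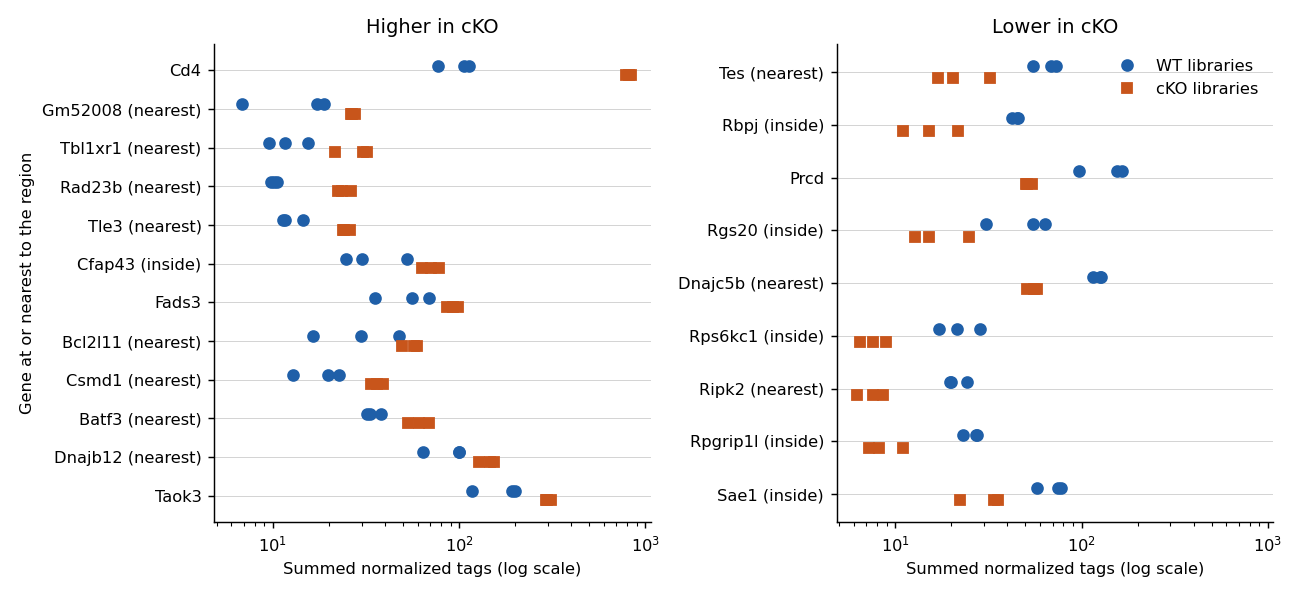
Summed normalized tags (x axis, log scale) in each WT (circles) and cKO (squares) library for 12 regions higher and 9 lower by all 3 measures under 4 scalings (y axis, gene at the region, around it or nearest to it). The rows were chosen by tests on these values, and in each all 3 cKO libraries lie on one side of all 3 WT libraries. Cd4 has by far the widest gap.

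Among the regions lower by all 3 measures under 4 scalings, 1 of 76 held a transcription start. This was at Prcd, which encodes a small membrane protein known from photoreceptor discs (chr11:116656572-116658647, inside the gene as the gene table draws it, with the start of the promoter table shown above). Summed tags were 156, 96.9 and 166 in WT and 54.2, 50.8 and 50.2 in cKO. The cKO libraries were tightly grouped and well below the lowest WT library, 2.69-fold lower on average. The log2 change was -1.43 ± 0.11 (SE) for summed tags (adjusted p = 3.12e-06) and -1.14 for tags per kb (adjusted p = 0.0121). The summed-tag call held without any 1 library, with adjusted p from 4.09e-07 to 0.000144, while the adjusted p per kb ranged up to 0.0808. Prcd RNA was 552, 690.0 and 593 normalized counts in WT and 70.2, 77.9 and 96.1 in cKO. It fell by 2.90 on the log2 scale (limma adjusted p = 0.00023), so chromatin and RNA were both lower. The 2 shared regions at the ends of Prcd did not pass the test, with log2 changes of 0.02 and -0.14.

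The other named lower regions lay inside or between genes. A region inside Rbpj, the nuclear effector of Notch signalling, held 44.9, 45.6 and 42.4 normalized tags in WT and 15.2, 21.7 and 11.0 in cKO (log2 -1.15, adjusted p = 0.00843). A region inside Sae1, a subunit of the SUMO-activating enzyme, held 77.8, 57.8 and 75.1 in WT and 33.8, 35.5 and 22.4 in cKO (log2 -1.03, adjusted p = 0.00171). Both regions lost about the same amount per kb as in total, with log2 changes per kb of -1.19 and -1.16. The region 77723 bp from Dnajc5b, a J-domain protein gene, was the most even, with 127, 115 and 126 in WT and 51.0, 57.5 and 55.9 in cKO (log2 -1.21, adjusted p = 9.01e-05). The region 36523 bp from Tes, which encodes the LIM protein testin, held 72.8, 54.6 and 68.3 in WT and 16.9, 32.2 and 20.5 in cKO (log2 -1.28, adjusted p = 0.00114). In both, no cKO library reached the lowest WT library. The regions at or near Rgs20, Rps6kc1, Ripk2 and Rpgrip1l were likewise separate, with log2 changes of -1.14 to -1.05. Those at Rps6kc1 and Ripk2 were not called by summed tags without cKO replicate 2 (adjusted p = 0.0575), nor that at Rpgrip1l without cKO replicate 1 (adjusted p = 0.0564). Where the RNA of these genes was tested, Prcd alone was called.

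Most lower regions covered less DNA in cKO and were not called per kb. One such region lay at Cd274, which encodes the checkpoint ligand PD-L1. At chr19:29382093-29386461, inside Cd274 and over the start of the predicted gene Gm36043, summed tags were 100.0, 78.6 and 98.4 in WT and 23.8, 23.1 and 19.8 in cKO. The peaks covered 4.24, 4.09 and 4.08 kb in WT and 1.26, 1.26 and 1.35 kb in cKO. Both separated the groups completely, and summed tags were 4.15-fold lower (log2 -1.88 ± 0.16 SE, adjusted p = 4.72e-06), whereas tags per kb had a log2 change of -0.17 (adjusted p = 0.59). DNA called in WT but not in cKO does not enter the cKO value per kb, so that value cannot show a loss there. A neighbouring region at the end of the gene held 83.4, 43.4 and 37.2 in WT and 19.0, 7.9 and 18.6 in cKO (log2 -1.49, adjusted p = 0.00837). Another, which starts at chr19:29364075, had a log2 of -1.02 (adjusted p = 0.0352), and it was not called when WT replicate 2 or 3, or cKO replicate 1 or 3, was left out singly (adjusted p from 0.0707 to 0.155). Other shared regions of Cd274 were not called. The one at the other end of the gene held 92.1, 49.7 and 85.2 in WT and 74.5, 83.8 and 83.3 in cKO. These overlap (log2 0.12, adjusted p = 0.574). One inside the gene, which starts at chr19:29374691, had a log2 of -0.23 (adjusted p = 0.309). Cd274 RNA was 851 ± 95.2 normalized counts in WT and 1122 ± 189 in cKO (log2 0.39, adjusted p = 0.405).

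Some genes held more than 1 lower region. Over the 4 scalings, 624 genes held at least 1 region lower by summed tags, 69 at least 2 and 17 at least 3. For higher regions the numbers were 633, 5 and 0. The 2 sets differ in size, with 617 higher and 1133 lower regions, and in the share at gene ends, with 75.0% and 7.41%. Genes with many shared regions have more chances to be counted here. The genes named in the rest of this paragraph were chosen after their values were seen. Bach2, a repressor that binds sites related to those of NRF2 and restrains T cell differentiation, had 6 of its 34 shared regions lower, where 3.45% of all shared regions were. Fyb, an adaptor of T cell adhesion, had 4 of 12. Nfkb1, which encodes the p105 and p50 NF-κB subunit, had 4 of 14. Bcl11b, a T lineage factor, had 3 of 7 and Lef1, a Wnt pathway factor of T cells, had 3 of 12. RNA of the 17 genes did not pass the test in any.

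In most of these regions too the cKO peaks covered less DNA. Inside Bach2, the region at chr4:32362875-32367057 held 163, 109 and 164 normalized tags in WT and 93.5, 91.9 and 94.3 in cKO (log2 -0.78, adjusted p = 0.000126). The region over the Bach2 end at chr4:32237738-32245074 is different. Its log2 change was -0.50 after quantile normalization (adjusted p = 0.000396) and 0.20 after scaling to the library median. At an end of Nfkb1, chr3:135578561-135584262, the sums were 83.4, 54.0 and 72.5 in WT and 43.5, 29.3 and 15.2 in cKO (log2 -1.15, adjusted p = 0.00647). Inside Bcl11b, chr12:107933934-107936985 held 32.5, 36.6 and 18.8 in WT and 9.31, 6.77 and 6.84 in cKO (log2 -1.47, adjusted p = 0.00791). Inside Fyb, chr15:6588043-6590251 held 43.8, 31.1 and 33.8 in WT and 17.9, 6.77 and 7.98 in cKO (log2 -1.43, adjusted p = 0.00784). The Fyb peaks there covered 2.15, 2.12 and 2.01 kb in WT and 1.17, 0.50 and 0.50 kb in cKO. Apart from the region over the Bach2 end, none of these regions had overlapping groups, and their log2 change per kb was between -0.12 and 0.02. In cKO replicates 2 and 3 the Bcl11b and Fyb peaks covered 0.5 kb, the caller's peak size, and held 6.77 to 7.98 normalized tags. The lowest peaks called in these libraries held 5.08 and 5.7, so tags per kb could hardly be lower there.

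Gene lists were read through the shared regions at the ends of their genes, so their background is all 11612 shared regions at gene ends. Of these, 3.99% were higher and 0.723% lower under 4 scalings, 11.9% and 4.62% after quantile normalization, and 61.0% and 1.33% after scaling to the library median. Their median log2 change after quantile normalization was 0.12. In the NRF2 pathway list, 40 of 46 genes had 49 such regions. Under 4 scalings 2 regions were higher, at Cul3 and Esd, and 1 was lower, at Nqo1, so the share higher was near that of all gene ends. After quantile normalization 4 were higher (8.16%) and 5 lower (10.2%), with a median log2 of 0.05. After scaling to the library median 35 were higher and 1 lower, where most gene ends were called higher. At Nqo1 (chr8:107402803-107403994), the region that holds the promoter shown above, summed tags were 43.4, 29.2 and 51.4 in WT and 15.9, 17.8 and 12.5 in cKO. No cKO library reached a WT library, and the level was 2.68-fold lower (log2 -1.0, adjusted p = 0.0102; per kb log2 -0.71, adjusted p = 0.0656). At Cul3, the scaffold of the ligase that degrades NRF2, the values were 299.7, 174 and 264 in WT and 393, 413 and 439 in cKO (log2 0.34, adjusted p = 0.00384). At Esd, an esterase gene, they were 114, 75.8 and 102 in WT and 166, 144 and 155 in cKO (log2 0.51, adjusted p = 0.00383). RNA did not pass the test at any of the 3, with log2 changes of -0.67, 0.60 and -0.39.

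The promoters of Nfe2l2 and Keap1 were open in every library. At the Nfe2l2 start (chr2:75703132-75705717), summed tags were 354, 217 and 324 in WT and 397, 431 and 401 in cKO. Every cKO library was above every WT library as deposited, but the log2 change was 0.01 after quantile normalization (adjusted p = 0.921), 0.49 with no further scaling and 0.78 after scaling to the library median. Nfe2l2 RNA was 169.9, 155 and 147 normalized counts in WT and 453, 326 and 392 in cKO (log2 1.29, limma adjusted p = 0.0438). It therefore rose in the libraries labelled cKO. Keap1, the stress sensor of NRF2, had a log2 change of -0.04 at its start (adjusted p = 0.808) and of -0.11 in RNA (adjusted p = 0.87).

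Of the 33 Th2 genes, 31 had a peak at an end in at least 1 library and 29 had shared regions, 34 in all. Under 4 scalings none was higher and 2 were lower, at Il10 and Il17rb, against 3.99% and 0.723% of all gene ends. After quantile normalization 1 was higher (2.94%) and 5 lower (14.7%). The median log2 was -0.08 after quantile normalization, 0.27 after scaling to the library median and -0.02 with no further scaling. At the start of Il13, the airway effector cytokine, summed tags were 196, 98.8 and 177 in WT and 235, 229 and 223 in cKO (log2 0.29, adjusted p = 0.0577), while Il13 RNA was 810.1 ± 246 normalized counts in WT and 385 ± 58.3 in cKO (log2 -1.04, adjusted p = 0.0834). Gata3, the master factor of the lineage, had 1 region at a gene end, with 59.3, 50.2 and 61.2 in WT and 45.9, 43.2 and 49.0 in cKO, which was not called (log2 -0.15, adjusted p = 0.545). Over the start of Gata3, which the gene table places inside the gene and which is not counted in the list, the sums were 318, 216 and 285 in WT and 273, 294 and 300.0 in cKO. These overlap, and the log2 change was -0.33 after quantile normalization (adjusted p = 0.00842), 0.10 with no further scaling and 0.39 after scaling to the library median. Il10, which encodes a regulatory cytokine, had 2 regions that went in opposite directions. One held 44.5, 60.3 and 56.7 in WT and 19.3, 34.1 and 16.0 in cKO (log2 -1.0, adjusted p = 0.023, or 0.0784 to 0.106 when WT replicate 2, or cKO replicate 1 or 3, was left out singly). The other held 24.9, 13.1 and 17.3 in WT and 24.8, 25.4 and 25.5 in cKO (log2 0.86, adjusted p = 0.0243). There WT replicate 1 was at the cKO level, and the region was not called without WT replicate 3 or any 1 cKO library (adjusted p up to 0.0834). Il5 and Ptgdr2, the gene of the prostaglandin receptor CRTH2, had no peak at an end in any library, and Il4 had one in 3 of 6.

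After quantile normalization, the activation and checkpoint genes had the largest number of lower calls of the 12 lists. By share, the T cell markers had slightly more (40%). Of the 33 activation and checkpoint regions, none was higher and 13 were lower by that scaling (39.4%, against 4.62% of all gene ends). Their median log2 was -0.30. Under 4 scalings 3 of these 13 were lower, at Cd274, Ctla4 and Il7r. After scaling to the library median 10 were higher and 3 lower, with a median log2 of 0.10, so the sign of the list's median turned with the scaling. Of all gene ends, 61.0% were then higher and 1.33% lower. Under both scalings the list had a smaller share of higher calls and a larger share of lower calls than all gene ends. At the start of Il7r, the IL-7 receptor, the values were 113, 101 and 119.8 in WT and 68.6, 65.4 and 54.7 in cKO, with no overlap (log2 -0.87, adjusted p = 0.000956). At the start of Il2 the values were 432, 350.3 and 433 in WT and 334, 300.4 and 284 in cKO. That is a log2 of -0.86 (adjusted p = 5.33e-05) after quantile normalization but -0.11 after scaling to the library median. Tnfsf8, the CD30 ligand, had -0.85 and -0.07.

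The 15 T cell marker genes all had a peak at an end in at least 1 library. Of the 20 shared regions there, 1 was higher (5%) and 8 lower (40%) after quantile normalization, against 11.9% and 4.62% of all gene ends. After scaling to the library median 4 were higher and 1 lower, where 61.0% and 1.33% of gene ends were. Under 4 scalings 1 was higher (Cd4) and 1 lower. Of the 41 regions of AP-1, NFAT and early response genes, 1 was higher (Nr4a1) and 1 lower (Nfkb1) under 4 scalings. Of all gene ends, 3.99% were higher and 0.723% lower. Nfkb1 had 3 regions at its ends, of which 1 was called lower after quantile normalization. After that scaling 4 regions of the list were higher (9.76%) and 5 lower (12.2%), against 11.9% and 4.62% of all gene ends. The 4 higher were at Batf3, Nr4a1, Nr4a2 and Hspa1a. Myc, Egr2 and Ier2 were called lower after quantile normalization, with log2 changes of -0.31, -0.36 and -0.39, and higher after scaling to the library median, with 0.46, 0.44 and 0.43. Of the 38 regions of glycolysis and mitochondrial genes, 2 were higher under 4 scalings and none lower, a share near the 3.99% of all gene ends, so the values that follow only describe these 2. They were at Idh3a, a subunit of the citric acid cycle enzyme isocitrate dehydrogenase (175, 90.0 and 137 in WT and 197, 223 and 220.2 in cKO), and at Ndufa2, a subunit of respiratory complex I (136, 86.8 and 128 in WT and 162, 181 and 184 in cKO). Both groups of values were separate, with log2 changes of 0.45 and 0.38 (adjusted p = 0.00969 and 0.0107), and neither was called without cKO replicate 2 or cKO replicate 3 (adjusted p from 0.0506 to 0.0704). Ndufa2 RNA went the other way, with a log2 of -1.12 (adjusted p = 0.0421). Of the 12 regions of Th1 and Th17 genes none was called under 4 scalings, and Il17a, Il17f, Il22 and Il23r had no peak at an end in any library.

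Genes of other cell types often had a peak at an end in at least 1 library: 5 of 8 B cell genes, 5 of 10 myeloid genes, 3 of 7 mast cell, basophil and eosinophil genes, 6 of 9 CD8 T and NK genes and 9 of 10 epithelial and stromal genes. Fewer had one in every library. Shared regions lay at 2 of 8 B cell genes, 3 of 10 myeloid genes, 1 of 7 mast cell, basophil and eosinophil genes, 3 of 9 CD8 T and NK genes and 4 of 10 epithelial and stromal genes. These were at Ebf1 and Cd79a, at Spi1, Cebpa and Cd14, at Kit, at Eomes, Cd8b1 and Klrb1c, and at Epcam, Cdh1, Sftpc and Col1a1. None of these regions was called under 4 scalings. After quantile normalization those at Epcam and Sftpc, of epithelial cells, were higher, with log2 changes of 0.54 and 0.52, and with no further scaling neither was called. No peak lay at an end of Ms4a1 and Pax5 of B cells, Lyz2, Itgam, Adgre1 and S100a8 of myeloid cells, Cpa3 and Mcpt8 of mast cells and basophils, or Gzma and Ncr1 of cytotoxic cells in any library. The summed RNA of the B cell list was 532 to 911 normalized counts in WT and 584 to 917 in cKO, and that of the myeloid list was 106 to 136 in WT and 59.5 to 147 in cKO, so the ranges overlapped.

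RNA changed in few genes. Of 18074 genes tested, 6 rose (0.0332%) and 31 fell (0.172%) in cKO. The genes that fell include the Y-linked Ddx3y and Eif2s3y, taken up in the next paragraph. By the promoter table, the start of 28 of these 37 genes lay in a shared region, of which 4 were higher and 2 lower by summed tags after quantile normalization and 1, Prcd, changed by all 3 measures. In 3 of these 6 the region and the RNA had the same direction: Hspa1a, a heat shock gene, higher in both, and Prcd and Txn1, the NRF2 target thioredoxin, lower in both. In the other 3, Lsm6, Nme1 and Prdx1, the region was higher and the RNA lower. Under 4 scalings 2 of the 6 regions were called, those of Prcd and Nme1. Of all 9777 shared regions that held a start, 1149 were higher and 494 lower after quantile normalization. Under 4 scalings 401 were higher and 65 lower. The 4 higher and 2 lower of 28 are near the shares of all such regions, so they are given as a description. Of the other 9 genes, 7 had no entry in the promoter table, and 5 had a shared region at a gene end. Among these, the region at Ndufa2 was higher with the RNA lower, as given above, and that at Sec11c, a signal peptidase subunit, was lower after quantile normalization (log2 -0.30) with the RNA lower (log2 -1.04). At Nme1, a nucleoside diphosphate kinase, summed tags were 172, 108 and 154 in WT and 209, 239 and 215 in cKO, with no overlap (log2 0.34, adjusted p = 0.0133), and the RNA fell by 1.16 on the log2 scale (adjusted p = 0.0221). At Txn1 the sums were 370.3, 221 and 318 in WT and 355, 341 and 335 in cKO, which overlap. The log2 change there was -0.25 after quantile normalization (adjusted p = 0.0207) and 0.51 after scaling to the library median, beside an RNA change of -1.05 (adjusted p = 0.0144). Over the 405 tested genes that start in a region higher under 4 scalings the median RNA log2 change was 0.06. It was 0.03 over the 41 genes that start in a lower region and 0.05 over all 9048 genes that start in a shared region.

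The RNA libraries are other samples than the ATAC-seq libraries, and the groups differed in Y-linked RNA. Ddx3y, a Y-linked helicase gene, was at 140.5, 123 and 132 normalized counts in the WT RNA libraries and at 0 in all 3 cKO RNA libraries, whereas Xist RNA, which coats the inactive X of females, was 3174 to 4047 in WT and 4331 to 7069 in cKO. In the ATAC-seq lists, no library of either genotype had a peak at Ddx3y, Eif2s3y, Kdm5d or Uty, and each had 2 or 3 peaks at Xist. The RNA groups thus differed in Y-linked RNA as well as in genotype, and these cannot be told apart. The part of this difference in the RNA values beside the regions was not tested.

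Promoter letters differed between the sets of regions, as a description. Of the 13400 RefSeq promoters whose start lay in a shared region, 65.8% held an Sp/KLF box within 250 bases before and 50 bases after the start. The share was 82.9% of the 545 promoters in regions higher under 4 scalings and 21.4% of the 70 in lower regions. The AP-1 motif TGANTCA was held by 5.07% of promoters in shared regions, by 3.30% in higher and by 18.6% in lower regions. The NFAT motif TTTCCA was held by 15.7%, 10.8% and 25.7%, and the RUNX motif TGTGGT by 12.2%, 11.2% and 24.3%. The ETS motif was held by 17.6%, 14.1% and 7.14%, and the GATA motif AGATAA by 5.54%, 2.75% and 11.4%. The antioxidant response core was held by 42.9%, 44.6% and 35.7%. It is short and degenerate and was held by 41.3% of all 31396 autosomal promoters in the table. The 70 promoters in lower regions are few, so these shares are coarse.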

How the data were processed

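The ATAC-seq peak lists were called by the authors with HOMER 4.11, one list per library and in its histone style, per the file headers (peak size 500 bp, minimum distance 1000 bp, Poisson p threshold 0.001, at most 1 tag per bp, neighbouring peaks stitched). The submitters' processing notes name Bowtie2 2.3.5.1 and mm10, without settings. The deposited signal per peak is the normalized tag count, scaled per the file headers to 10000000 tags, mitochondrial tags included, and the deposited findPeaks score was used only to rank peaks. The deposited RNA signal is a normalized count per gene, for which the notes list STAR, RSEM 1.3.3, DESeq2 and edgeR, and its depth was not used. It was kept at a mean of 10 or more.

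From these, autosomal peaks were merged at 1 bp of overlap, and shared regions were tested with limma 3.58.1 (R 4.3.3, empirical Bayes with a mean-variance trend, pseudocount 1, quantile normalization, Benjamini-Hochberg adjustment). RNA was tested with limma on log2(value + 1) without further scaling. Library summaries were tested by exact permutation. Folds are ratios of mean normalized tags as deposited, and log2 changes come from the fit after quantile normalization unless another scaling is named. A fold change on the log2(value + 1) scale understates that of low regions. Genes came from RefSeq GRCm38.p6: all 255 list genes were found, 190 with a promoter (74.5%), and 15773 of 18062 RNA symbols (87.3%).

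Groups follow the labels, and same-numbered libraries did not all deviate together (correlations of -0.02 to 0.01 in ATAC-seq and -0.06 to 0.21 in RNA). The members, the 12 gene lists and the naming rules were chosen with earlier results of these data known. Named regions are, in each direction, the 12 of those called by all 3 measures under 4 scalings with the largest smallest change over the 3 measures, the 4 tallest per presence class, the 4 with the smallest p per list, and those at genes named for their role; some of them are not reported here. Resting on summed tags under 4 scalings, and naming genes with several lower regions, list genes called under 4 scalings, and genes called in both RNA and chromatin, were chosen after the values were seen.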

Additional observations from a re-analysis of the deposited data

How the results depend on the processing

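Counts moved with the scaling. After scaling to the library median, 9657 regions were higher by summed tags, 9165 by the highest peak, 7352 by tags per kb and 6329 by all 3, and 1360 were lower by tags per kb and 596 by all 3. With no further scaling, 650, 407 and 35 were higher by summed tags, the highest peak and all 3, and 3033 and 450 were lower by the highest peak and all 3. Without the mean-variance trend, 515, 295 and 55 were higher and 632, 307 and 70 lower by the same measures. With the replicate number as a block, all 3 measures gave 60 higher and 97 lower regions, and RNA 30 genes higher and 92 lower; same-numbered libraries did not all deviate together (correlations of 0.12, 0.21 and -0.06 in RNA), so the replicate block rests on a shared number alone. RNA gave 17 and 16 after quantile normalization. Equal numbers of top-scoring peaks left 1842 WT-only regions, and peaks of at least 10 normalized tags left 108 cKO-only regions and a median length difference of 36 bp. The cause of these shifts was not tested. Counts by cyclic loess, pseudocount 5, the height minimum and X and Y included stayed within 1.5 times.

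Leaving out 1 library at a time gave 570 to 2059 regions higher and 1178 to 2180 lower by summed tags, 90 to 981 and 278 to 1067 by the highest peak, 1 to 162 and 0 to 367 by tags per kb, and 1 to 41 and 0 to 77 by all 3. Presence gave 3657 to 5442 WT-only and 407 to 1253 cKO-only regions, more than with all libraries, since the condition is then on 5 lists. The differences ranged from -11347 to -4060.5 peaks, -14.1 to -7.18 Mb, -2.13 to 3.29 points of tags in peaks (below 0 without WT replicate 2) and -58.2 to -3.17 bp of median length. RNA gave 0 to 56 genes higher and 1 to 94 lower.

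The summed-tag direction of some regions at gene ends, and of that over the Gata3 start, turned, as log2 changes. After scaling to the library median these were 0.012 at Cd5, 0.25 and 0.25 at the 2 Il4ra regions, 0.30 at Il12rb1, 0.20 at Bach2, 0.00098 at Tnfrsf4, 0.43 at Ier2, 0.44 at Egr2, 0.46 at Myc, 0.36 at Atp5b, 0.48 at Keap1 and 0.39 at Gata3. With no further scaling they were 0.0085 at Il12rb1, 0.13 at Ier2, 0.14 at Egr2, 0.16 at Myc, 0.066 at Atp5b, 0.19 at Keap1, 0.10 at Gata3 and -0.047 at Ccl1. Leaving out 1 library at a time, the start of Nfe2l2 ranged from -0.018 to 0.030 (below 0 without WT replicate 3 or cKO replicate 2) and that of Keap1 from -0.11 to 0.045 (above 0 without WT replicate 3). Peaks under about 5 normalized tags were not called at this depth, so absence from a list is no measure of closed chromatin.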

Other observations

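Mitochondrial and ribosomal DNA tags differed between libraries and enter the scaling to 10000000 tags. Mitochondrial tags were 7.01%, 4.98% and 6.84% of all tags in the WT libraries and 7.54%, 6.71% and 7.78% in the cKO libraries, which overlap (2-sided exact permutation p = 0.3). One peak over a ribosomal DNA repeat on chromosome 17 held 86131, 48512 and 81482 normalized tags in WT and 114106, 108595 and 120189 in cKO (exact permutation p = 0.1, the smallest that 3 against 3 can give). Every cKO library was above every WT library there. The part of these tags in the counts of higher and lower regions was not tested.

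Called regions were spread over all autosomes. By summed tags after quantile normalization, the share of shared regions called higher ranged from 4.42% on chromosome 6 to 8.95% on chromosome 15, and the share called lower from 5.73% on chromosome 5 to 9.44% on chromosome 13. Several further genes held 3 or more regions lower under 4 scalings, chosen after their values were seen. Aopep and Celf2 had 4 each, and Ankrd44, Asap1, Egfr, Gm8369, Nsmce2, Phlpp1, Sh3rf1 and Sox5 had 3 each. Their RNA log2 changes lay between -0.22 (Celf2) and 0.99 (Egfr), and no adjusted p was under 0.2.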
